A study of Mus musculus with 21 samples.

Results

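Naa20 and Crnkl1 are neighbouring genes on mouse chromosome 2 whose transcript levels lay apart, in opposite directions, between groups of Kif11 mutant oocytes. They were chosen by that difference, so their levels and fold changes are descriptions and carry no test. These are 2 of the 54232 genes in the count table, both were measured in all 21 libraries, and both passed the filter on low counts, which asked for a count above 0 in at least 3 libraries.

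Naa20 encodes the catalytic subunit of NatB, the N-terminal acetyltransferase that modifies nascent proteins beginning with methionine followed by an acidic or amide residue, and its auxiliary subunit is encoded by Naa25. Crnkl1 encodes the crooked neck-like protein, a splicing factor of the Prp19-associated assembly that joins the spliceosome when it becomes catalytically active. A full-grown oocyte stores the RNA made during growth and is largely silent in transcription, so a level in it reflects RNA accumulated over weeks.

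The series measured poly(A) RNA of full-grown germinal vesicle oocytes, 3 oocytes to a library, by a low-input full-length method from females of C57BL/6 background. The study's methods describe adult donors a few months old, given a hormone to induce hyperovulation before collection. Of the 4 groups on the Spo11-Cre background, wt/fl (4 libraries) carried 1 floxed Kif11 allele and no Cre, and wt/fl Spo11-Cre (5 libraries) added a transgene that drives Cre in meiotic prophase. The fl/del group (4 libraries) carried 1 floxed and 1 constitutively deleted allele without Cre, and fl/del Spo11-Cre (4 libraries) added the transgene. Both other groups, fl/fl Gdf9-Cre (2 libraries) and, with the same genotype, fl/fl Zp3-Cre (2 libraries), carried 2 floxed alleles and a Cre driven in oocytes, by a promoter active from the primordial follicle on (Gdf9) or in growing oocytes (Zp3). Every group therefore held at least 1 floxed allele. No library lacked it, and none carried Gdf9-Cre or Zp3-Cre together with Spo11-Cre.

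The total count per library ran from 7205010 to 18454549. The fl/fl groups, at 7801470 to 10759741, and 1 fl/del library, at 7205010, were the shallowest. Kif11 over all exons, the check of the labels, averaged 34.5 ± 8.46 counts per 1000000 (CPM; SD over 4 libraries) for wt/fl and 24.6 ± 5.04 (5 libraries) for wt/fl Spo11-Cre. It averaged 11.9 ± 3.06 (4 libraries) for fl/del and 1.78 ± 0.685 (4 libraries) for fl/del Spo11-Cre. It was 5.11 and 4.90 CPM in the Gdf9-Cre libraries and 7.95 and 4.27 CPM in the Zp3-Cre libraries, so no group went against its label. The 14 oocyte markers summed to 25654 to 34685 CPM. By edgeR at an adjusted p under 0.05, 3 of the 14 (21.4%, beside 2.19% of all genes) were called in wt/fl Spo11-Cre compared with wt/fl. These were Nobox, Ooep and Zp1, 1 higher and 2 lower. Against wt/fl, Zp1 was lower in Gdf9-Cre and Zp3 lower in Zp3-Cre, each 1 of the 14 (7.14%, beside 1.48% and 2.27% of all genes). The part of these markers in the results was not tested. The 18 markers of follicle and other ovarian cells summed to 49.3 to 88.7 CPM, of which Cyp19a1, the aromatase gene, made up 66.2 CPM on average, and Foxl2 and Tnfaip6 were at 0 in every library. The ranges of both sums overlapped between wt/fl and each other group. Each mouse gave 1 or 2 libraries, and 8 pairs of libraries shared the first part of their name (for example m920), which the labels do not explain. Libraries of 1 mouse are not independent, so p-values here measure the spread between libraries and may be too small. Each library pooled 3 oocytes, so a change in 1 of them and a change in all 3 cannot be told apart.

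Naa20 (ENSMUSG00000002728) lies on the plus strand at chr2:145902099-145916425 of GRCm38 and Crnkl1 (ENSMUSG00000001767) on the minus strand at chr2:145917479-145935014. The genes converge, with 1053 bases between their annotated 3′ ends. Their annotated exons cover 3705 and 3844 bases, so per-length values change the ratio of the genes by only 1.04. The 5′ end of Crnkl1 overlaps Cfap61, a cilia gene on the plus strand, by 231 bases. The kit does not mark strand, so reads in that overlap may come from either gene. Cfap61 was at 1.95 to 7.74 CPM over the 21 libraries, against 140 CPM or more for Crnkl1.

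The starts of the genes are shown because the genes are read towards each other from separate promoters, and each start holds the same short motif. The motif, CCGGAA on either strand (TTCCGG on the other), contains the GGAA core that ETS-family factors bind, and it was chosen after the windows had been read. Windows run from 250 bases before to 50 bases after the RefSeq start on GRCm38.p6, and both genes matched the RefSeq table by symbol. The RefSeq starts lie inside the annotated genes given above. Both windows are therefore within those bounds and not upstream of them. The Crnkl1 window, chr2:145934651-145934950, also runs into Cfap61, annotated from base 145934784. The Naa20 line gives the 250 bases before the RefSeq start, chr2:145902991-145903240 on the plus strand. The Crnkl1 line gives 30 bases of its window, chr2:145934701-145934730 read on the minus strand, and capitals mark the motif.
Naa20: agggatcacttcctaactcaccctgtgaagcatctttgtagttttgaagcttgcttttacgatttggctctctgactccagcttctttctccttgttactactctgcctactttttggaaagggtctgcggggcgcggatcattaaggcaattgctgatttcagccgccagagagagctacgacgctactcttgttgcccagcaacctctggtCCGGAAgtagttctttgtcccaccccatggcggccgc
Crnkl1: cgcaagTTCCGGTTCCGGTTCCGGtatcta
The whole Naa20 window held 2 matches, starting 37 bases before the start and at base 13 after it, and only the first is in the printed stretch. The Crnkl1 window held 3 matches in tandem, starting 24, 18 and 12 bases before the start. Of the 32851 RefSeq windows, 14.9% held at least 1 match, 3.59% at least 2 and 0.852% at least 3, with overlapping matches counted separately. GC content was 55.3% in the Naa20 window and 62.0% in the Crnkl1 window, with a median of 52.7% over all windows. A match describes the letters of the window and is neither a bound site nor a cause.

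Naa20 stood higher in every library with Spo11-Cre than in every library without it. In wt/fl it was at 98.6, 109, 105 and 122 CPM in replicates 1 to 4, a mean of 109 ± 9.81 (SD, n = 4). In wt/fl Spo11-Cre it was at 156, 159, 221, 235 and 187 CPM in replicates 1 to 5, a mean of 192 ± 35.7 (n = 5). These groups did not overlap, and the mean was 1.76-fold that of wt/fl.

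In fl/del, Naa20 was at 104, 113, 122 and 125 CPM, a mean of 116 ± 9.20 (n = 4). With Spo11-Cre added, fl/del libraries held 202, 192, 177 and 229 CPM (SD 22.1, n = 4), with a mean at 184% of wt/fl. The fl/del libraries thus overlapped wt/fl, while those of fl/del Spo11-Cre lay within the range of wt/fl Spo11-Cre. In fl/fl Gdf9-Cre, Naa20 was at 109 and 144 CPM and in fl/fl Zp3-Cre at 105 and 131 CPM. Both fl/fl groups overlapped wt/fl and fl/del, and neither reached the lowest Spo11-Cre library. Over all groups, the 9 libraries with Spo11-Cre lay between 156 and 235 CPM and the 12 without it between 98.6 and 144 CPM.

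By mean, the order for Naa20, as percent of wt/fl, was wt/fl, fl/del (107%), fl/fl Zp3-Cre (109%), fl/fl Gdf9-Cre (116%), wt/fl Spo11-Cre (176%) and fl/del Spo11-Cre (184%). Each group in this order overlapped the next, except that fl/fl Gdf9-Cre and wt/fl Spo11-Cre did not. Libraries with a shared name prefix differed by 1.02- to 1.30-fold, and in wt/fl Spo11-Cre the m916 libraries were the 156 and 159 CPM ones and the m917 libraries the 221 and 235 CPM ones.

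Crnkl1 went the other way, but its wt/fl libraries fell at 2 separate levels. In wt/fl it was at 516 and 487 CPM in replicates 1 and 2, named m920, and at 156 and 158 CPM in replicates 3 and 4, named m923. The mean of 329 ± 199 CPM (n = 4) therefore describes none of these libraries. The m920 mean was 502 CPM and the m923 mean 157 CPM, 3.20-fold apart, while Naa20 in the same libraries averaged 104 and 113 CPM. Kif11 averaged 41.0 CPM in the m920 and 28.0 CPM in the m923 libraries, and its part in the Crnkl1 difference was not tested.

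In wt/fl Spo11-Cre, Crnkl1 was at 145, 164, 158, 148 and 145 CPM, a mean of 152 ± 8.72 (n = 5). In fl/del it was at 477, 451, 416 and 428 CPM, a mean of 443 ± 27.2 (n = 4). With the transgene, fl/del libraries held 143, 140, 175 and 166 CPM, a mean of 156 ± 17.5 (n = 4). The fl/del Spo11-Cre and fl/del ranges did not overlap, with a mean 0.353-fold that of fl/del, whereas wt/fl Spo11-Cre overlapped wt/fl through its m923 libraries. In fl/fl Gdf9-Cre, Crnkl1 was at 535 and 391 CPM and in fl/fl Zp3-Cre at 482 and 579 CPM. Both fl/fl groups lay above every Spo11-Cre library, and the fl/fl Zp3-Cre libraries also lay above all fl/del libraries.

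By mean, the order for Crnkl1 was wt/fl Spo11-Cre (152 CPM), fl/del Spo11-Cre (156), wt/fl (329), fl/del (443), fl/fl Gdf9-Cre (463) and, highest, fl/fl Zp3-Cre (531). Each group overlapped the next in this order. The 9 Spo11-Cre libraries lay between 140 and 175 CPM. Both wt/fl libraries named m923 were inside that range, and the other 10 libraries without Spo11-Cre were at 391 CPM or more. Libraries with a shared name prefix differed by 1.01- to 1.13-fold.

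**Figure D1:**
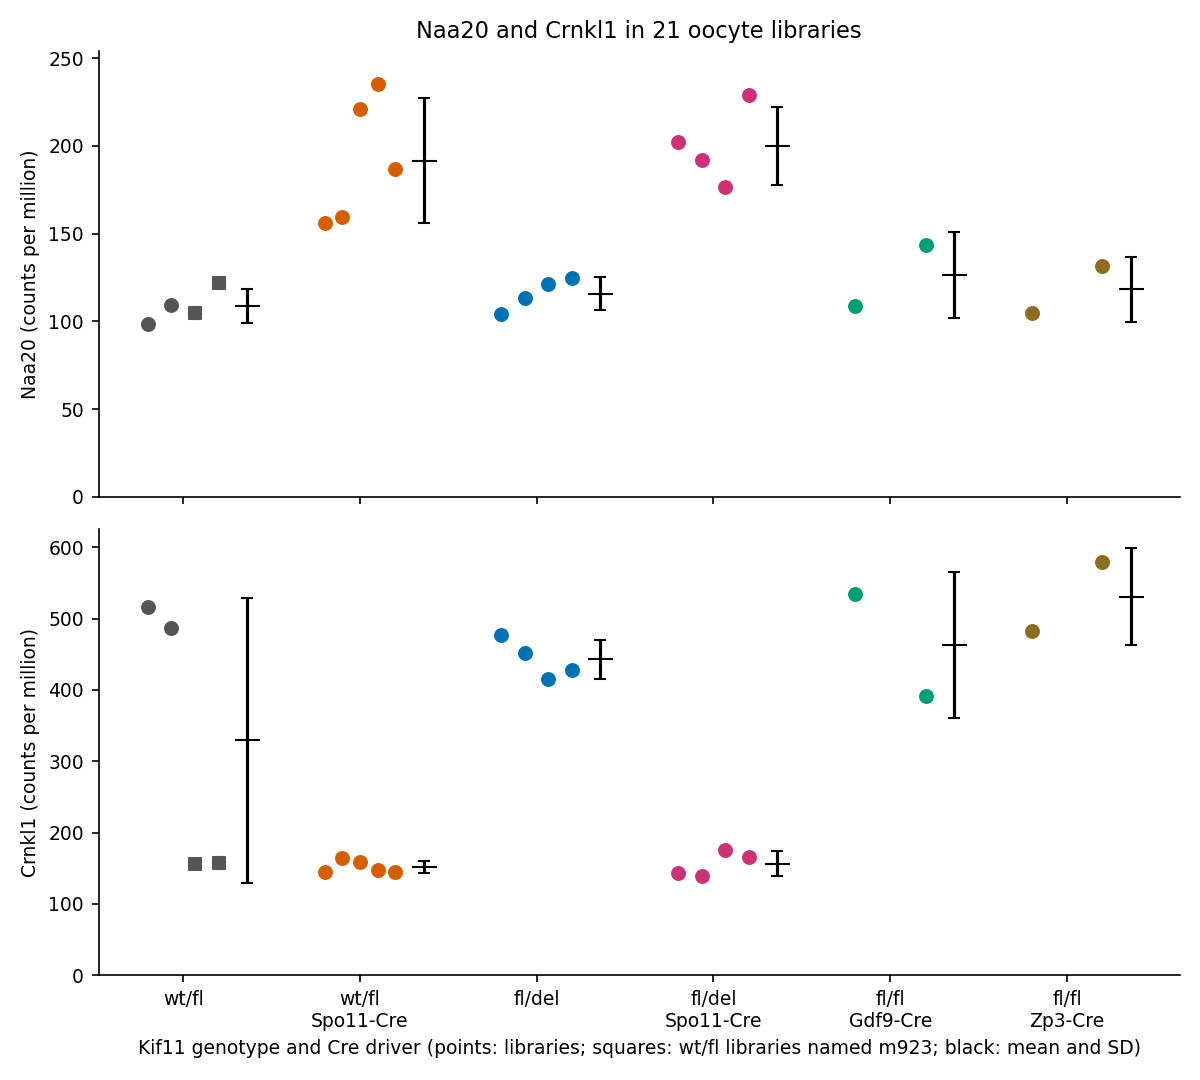
CPM of Naa20 (top) and Crnkl1 (bottom) in each of the 21 libraries by Kif11 genotype and Cre driver, with the mean and SD of each group in black and the wt/fl libraries named m923 as squares. All 9 Spo11-Cre libraries lie at 156 CPM or more for Naa20 and at 175 CPM or less for Crnkl1, and the m923 squares, at 156 and 158 CPM of Crnkl1, are low for both genes.

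The ratio of the genes within a library needs no library size. On the scale of TPM (transcripts scaled to 1000000), which is per length, Crnkl1 was 5.05, 4.29, 1.43 and 1.25 times Naa20 in wt/fl replicates 1 to 4. It was 0.893, 0.992, 0.692, 0.607 and 0.748 times Naa20 in wt/fl Spo11-Cre. Crnkl1 thus had the higher level per length in every wt/fl library and the lower one in every wt/fl Spo11-Cre library.

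The TPM ratio was 4.42, 3.84, 3.30 and 3.31 across fl/del replicates 1 to 4. For fl/del Spo11-Cre, ratios of 0.681, 0.702 and 0.957 were found in replicates 1 to 3 and 0.70 in replicate 4. In fl/fl Gdf9-Cre it was 4.73 and 2.62 and in fl/fl Zp3-Cre 4.43 and 4.25. Over all groups, the ratio was 0.607 to 0.992 with Spo11-Cre and 1.25 to 5.05 without it. The m923 libraries, at 1.43 and 1.25, were the lowest without Spo11-Cre, and the next was at 2.62.

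**Figure D2:**
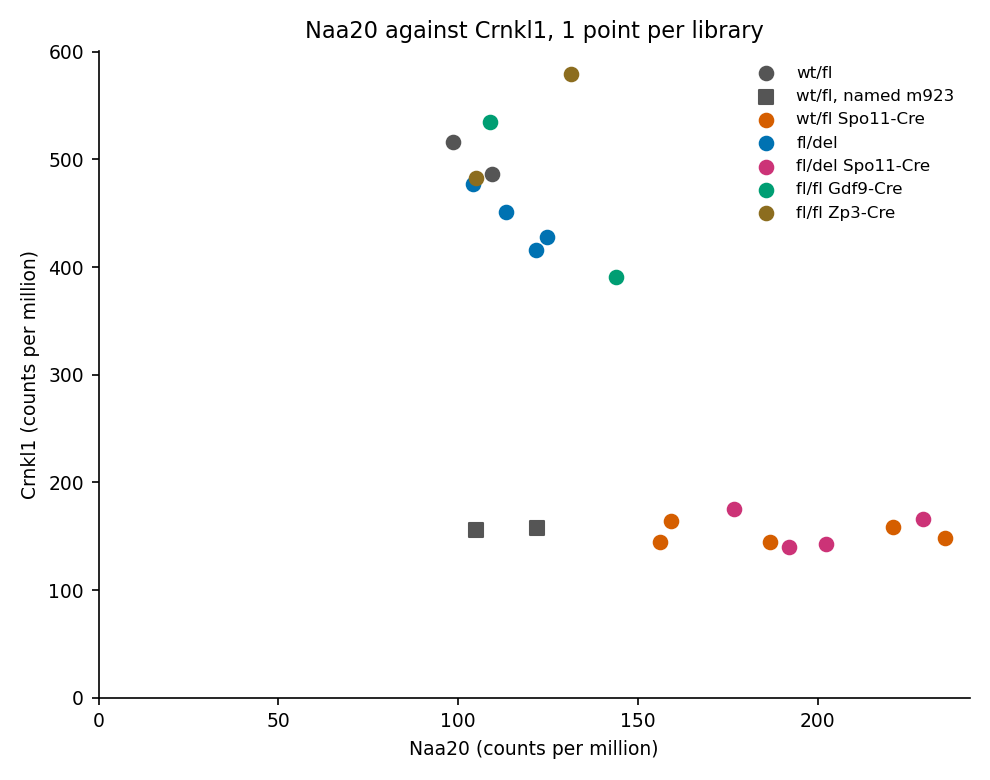
Crnkl1 against Naa20 in CPM, 1 point per library, coloured by group, with the wt/fl libraries named m923 as squares. The 9 Spo11-Cre libraries sit at high Naa20 and low Crnkl1, 10 of the other 12 at low Naa20 and at 391 CPM or more of Crnkl1, and the m923 libraries at low values of both.

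Over the 9 libraries with Spo11-Cre, Pearson's r of log2(CPM + 1) between the genes was -0.01, given as a description with no p because libraries of 1 mouse and of 1 group share their source.

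Fold changes from edgeR's quasi-likelihood fit, given as log2 fold change ± SE without a p, placed Naa20 at 0.84 ± 0.10 in wt/fl Spo11-Cre against wt/fl and at 0.77 ± 0.11 in fl/del Spo11-Cre against fl/del. Crnkl1 was at -1.08 ± 0.17 and -1.53 ± 0.18 in the same comparisons. For Naa20 the sign was the same in both genotypes. For Crnkl1 the first value rests on the m920 libraries of wt/fl: it was -1.70 ± 0.10 against these alone and -0.031 ± 0.11 against the m923 libraries alone.

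Deletion of 1 Kif11 allele without Cre left Naa20 near its control, at 0.11 ± 0.11 in fl/del against wt/fl. Crnkl1 was at 0.45 ± 0.17 in that comparison, on wt/fl libraries at 2 levels. It was at 1.51 when only the m923 libraries stood for wt/fl and at -0.16 when only the m920 libraries did. Between fl/del Spo11-Cre and wt/fl Spo11-Cre, where every library carried the transgene, Naa20 was at 0.03 ± 0.10 and Crnkl1 at 0.01 ± 0.17. Compared with wt/fl, Naa20 in fl/del Spo11-Cre was at 0.87 ± 0.11 and Crnkl1 at -1.07 ± 0.18. Compared with wt/fl Spo11-Cre, fl/del values were -0.74 ± 0.10 and 1.54 ± 0.17. Comparisons that use the same wt/fl libraries are not independent of each other.

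In neither fl/fl group did Naa20 reach, or Crnkl1 fall to, the range of the Spo11-Cre libraries. Against wt/fl, Naa20 was at 0.15 ± 0.15 in fl/fl Gdf9-Cre and 0.02 ± 0.15 in fl/fl Zp3-Cre, and Crnkl1 was at 0.43 ± 0.22 and 0.59 ± 0.22. With 2 libraries a group, both Crnkl1 values again rest on the split wt/fl group, and they were 1.49 and 1.65 against the m923 libraries alone and -0.18 and -0.01 against the m920 libraries alone. As percent of wt/fl, Crnkl1 in wt/fl Spo11-Cre was 46.2% against all 4 libraries, 30.3% against the m920 libraries and 96.9% against the m923 libraries. For fl/del Spo11-Cre, the same values were 47.4%, 31.1% and 99.6%. Naa20 does not share this limit.

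Adjacent genes called in opposite directions were counted without Naa20 and Crnkl1, which were chosen for this pattern. Genes were called at a Benjamini-Hochberg adjusted p under 0.05, which 491 of 22383 tested genes (2.19%) passed in wt/fl Spo11-Cre against wt/fl, 54 (0.241%) in fl/del Spo11-Cre against fl/del, 44 (0.197%) in fl/del Spo11-Cre against wt/fl, and 45 (0.201%) in fl/del against wt/fl Spo11-Cre. Between groups alike in Cre, 5 genes (0.0223%) passed in fl/del against wt/fl and 8 (0.0357%) in fl/del Spo11-Cre against wt/fl Spo11-Cre. Against wt/fl, 343 of 23225 genes (1.48%) passed in fl/fl Gdf9-Cre and 528 (2.27%) in fl/fl Zp3-Cre. Of 22306 pairs of consecutive tested genes, 12 others were both called in wt/fl Spo11-Cre against wt/fl, and 3 of these in opposite directions, namely Hsp90aa1 with Wdr20, Gm5724 with Slco1a4, and Usp28 with Cldn25-ps. With fl/del as the control of fl/del Spo11-Cre, 2 others were both called and 0 in opposite directions. In the remaining comparisons of this background 0 to 2 others were both called, and 0 in opposite directions. Of 23148 pairs, 11 were both called in fl/fl Gdf9-Cre against wt/fl, 2 of these in opposite directions. In fl/fl Zp3-Cre against wt/fl 17 were both called, 4 of these in opposite directions.

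The flanking genes were read for differences along the chromosome. Most were at low counts, so the absence of a call cannot show that the shift stopped at the pair. Among the 10 tested genes nearest on each side, from Zfp133-ps to Gm11764 before Naa20 and from Cfap61 to Gm14115 after Crnkl1, none of 20 passed the test in any of the 6 comparisons of the Spo11-Cre background by edgeR, where 2 to 4 had an unadjusted p under 0.05. DESeq2 called 1 of them in wt/fl Spo11-Cre against wt/fl, beside 931 of all genes, and 0 in the other comparisons of this background. The median log2 fold change of the 20 was 0.24 in wt/fl Spo11-Cre against wt/fl and 0.02 in fl/del Spo11-Cre against fl/del, beside 0.03 and 0.01 over all genes tested. For the 14 of them with a mean of 1 CPM or more, values ran from -0.74 to 0.52 and from -0.36 to 0.47, all nearer to 0 than those of Crnkl1 and Naa20 in the same comparison. Since the pair was chosen for its difference, that distance is no test. The other 6 were under 1 CPM on average and their values ran from -4.98 to 3.21, with standard errors of 1.30 to 2.07.

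Immediately before Naa20 lies Gm11764, at no more than 0.653 CPM in any library, and then Rin2, a Rab5 regulator. Rin2 was at 8.55 CPM ± 2.01 (n = 4) in wt/fl and 7.58 ± 1.27 (n = 5) in wt/fl Spo11-Cre, a log2 fold change of -0.15 ± 0.26. Cfap61, beyond Crnkl1, was at 5.05 ± 1.64 (n = 4) and 6.40 ± 1.01 (n = 5), at 0.36 ± 0.33. Neither passed the test there (edgeR adjusted p = 0.866 and 0.669). Within wt/fl, Cfap61 was at 3.78 and 3.61 CPM in the m920 libraries and 5.76 and 7.03 CPM in the m923 libraries. Its wt/fl Spo11-Cre libraries were at 5.46 to 7.74 CPM. In the fl/fl groups, Smim26, a small integral membrane protein gene, rose in fl/fl Gdf9-Cre against wt/fl by a log2 fold change of 1.10 ± 0.28 (edgeR adjusted p = 0.0213). It was the 1 call among the 20 there (5%, beside 1.48% of all genes), where 5 had an unadjusted p under 0.05 and DESeq2 called 3. In fl/fl Zp3-Cre 0 of 20 were called, 3 had an unadjusted p under 0.05 and DESeq2 called 1. Over all genes, 11.7% (Gdf9-Cre) and 13.1% (Zp3-Cre) had an unadjusted p under 0.05, and DESeq2 called 728 and 892.

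**Figure D3:**
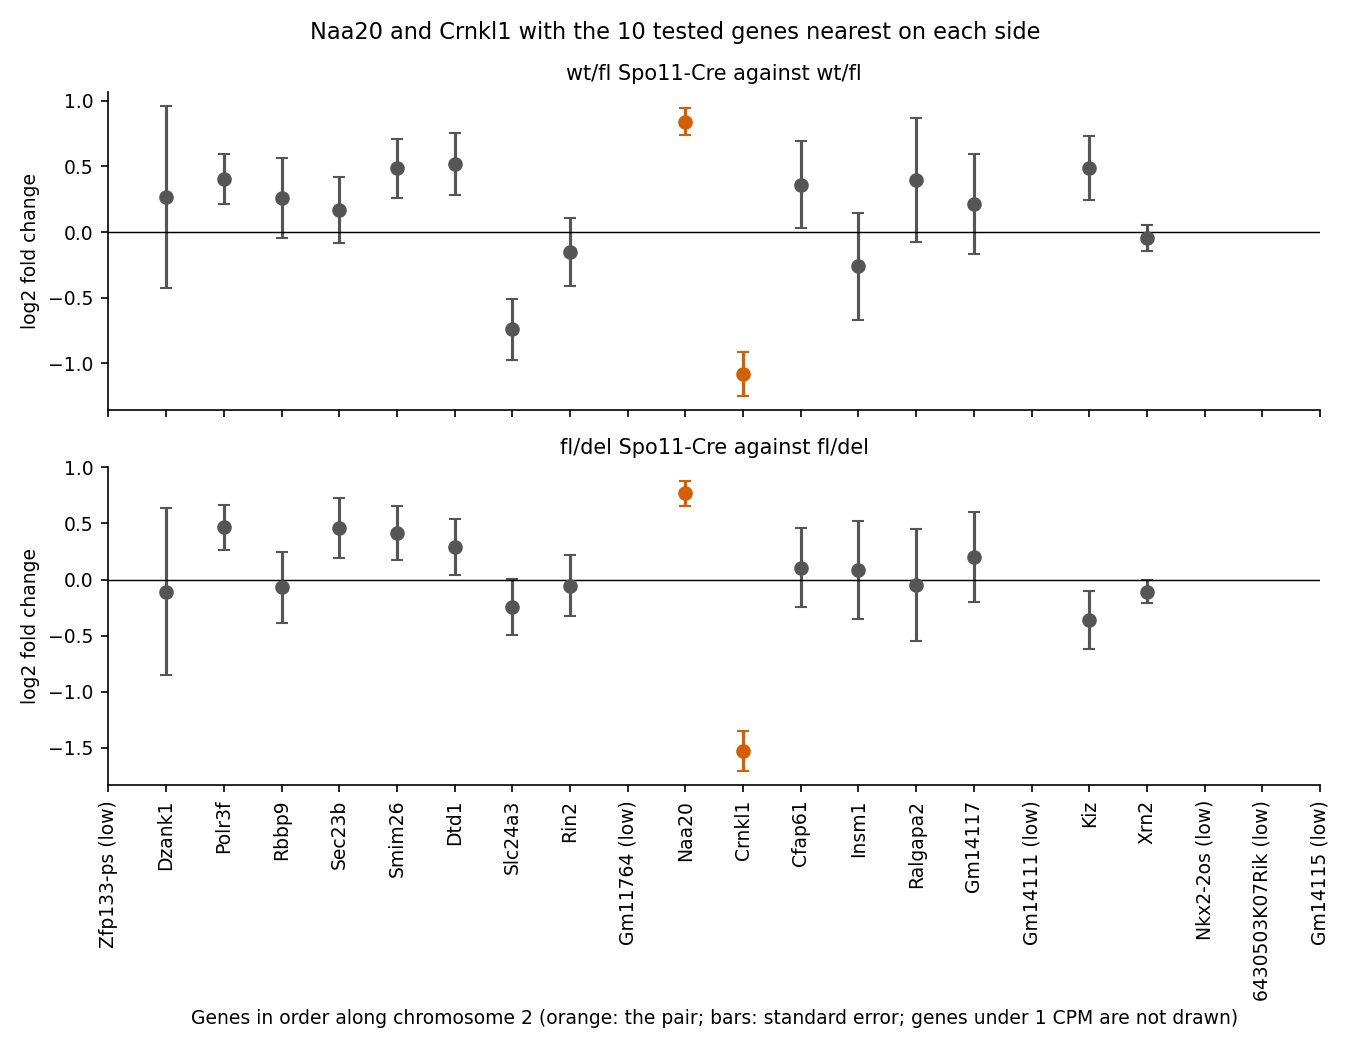
Log2 fold change with its standard error for the pair (orange) and the tested genes nearest on each side (grey), in their order along chromosome 2, top for wt/fl Spo11-Cre relative to wt/fl and bottom for fl/del Spo11-Cre relative to fl/del. Naa20 is at 0.84 and 0.77 and Crnkl1 at -1.08 and -1.53, and the grey genes lie between -0.74 and 0.52. The pair was chosen for its difference, so its distance from the grey genes describes the choice. Genes under 1 CPM are named but not drawn.

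Of 13 listed N-terminal acetyltransferase genes besides Naa20, all tested, 1 (7.69%, beside 2.19% of all genes) fell in wt/fl Spo11-Cre against wt/fl, and that was Naa40, the histone H2A and H4 acetyltransferase gene, at a log2 fold change of -0.65 ± 0.17 (edgeR adjusted p = 0.0252). This call was lost with the replicate block (adjusted p = 0.0524), with the m920 (0.243) or m923 (0.0886) libraries left out, and without wt/fl replicate 1 (0.0793), 2 (0.0634) or 4 (0.1000) or wt/fl Spo11-Cre replicate 5 (0.0960). In that comparison 3 of the 13 had an unadjusted p under 0.05, DESeq2 called 2, and the list's median was 0.03, as it was over all genes. By edgeR 0 of 13 passed in the other comparisons of this background, and DESeq2 called 0. There 1 to 3 had an unadjusted p under 0.05, beside 7.11% to 10.4% of all genes. The median in fl/del Spo11-Cre against fl/del was -0.04, beside 0.01 over all genes.

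Naa25, whose product pairs with that of Naa20 in NatB, was at 25.3 to 35.5 CPM in wt/fl, 28.2 to 36.1 in wt/fl Spo11-Cre, 32.6 to 37.6 in fl/del and 22.7 to 31.5 in fl/del Spo11-Cre. Its wt/fl and wt/fl Spo11-Cre ranges overlapped, with a log2 fold change of 0.03 ± 0.14 (edgeR adjusted p = 0.957). Its fl/del Spo11-Cre libraries all lay below its fl/del libraries, at -0.36 ± 0.15, which did not pass the test (edgeR adjusted p = 0.554). In the fl/fl groups, Naa30, the catalytic subunit gene of NatC, rose in fl/fl Zp3-Cre against wt/fl by 0.74 ± 0.14 (edgeR adjusted p = 3.26e-04). It was the 1 of 13 called there (7.69%, beside 2.27% of all genes), where 5 had an unadjusted p under 0.05 and DESeq2 called 1. Without fl/fl Zp3-Cre replicate 1, which left 1 library in the group, Naa30 was at 0.51. In fl/fl Gdf9-Cre 0 of 13 were called, 4 had an unadjusted p under 0.05 and DESeq2 called 1. Over all genes, 13.1% (Zp3-Cre) and 11.7% (Gdf9-Cre) had an unadjusted p under 0.05, and DESeq2 called 892 and 728.

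Of 31 listed genes of the Prp19 complex and spliceosome core besides Crnkl1, all tested, 3 fell and 0 rose in wt/fl Spo11-Cre against wt/fl (9.68%, beside 2.19% of all genes). They were Eftud2, the U5 GTPase gene, at -0.62 ± 0.12 (edgeR adjusted p = 0.00251), Prpf3, a U4/U6 factor gene, at -0.41 ± 0.11 (adjusted p = 0.0254), and Ctnnbl1, a Prp19-associated factor gene, at -0.34 ± 0.08 (adjusted p = 0.00958). In that comparison 16 of the 31 had an unadjusted p under 0.05, as did 3358 of the 22383 genes tested, and DESeq2 called 5. The list's median was 0.02 beside 0.03 over all genes. The Prpf3 call was lost with all 21 libraries in the fit (0.0819), with libraries summed by prefix (0.0721), with the m920 libraries left out (0.427) and without any of 4 single replicates, and the Ctnnbl1 call with the m920 libraries left out (0.202). By edgeR 0 of 31 passed in the other 5 comparisons of this background. There 1 to 5 had an unadjusted p under 0.05, beside 7.11% to 10.4% of all genes. DESeq2 called 1 in fl/del Spo11-Cre against wt/fl, beside 166 of all genes, and 0 in the rest.

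Prpf19, which encodes the ubiquitin ligase at the centre of the complex, was low, at 2.12 to 5.49 CPM over the 21 libraries, and was at 0.31 ± 0.42 in wt/fl Spo11-Cre against wt/fl (edgeR adjusted p = 0.810). Cdc5l, a core subunit gene, was at 0 to 0.937 CPM in wt/fl and rose in fl/fl Gdf9-Cre, at 5.44 and 16.8 CPM, by 4.38 ± 0.76 (edgeR adjusted p = 1.66e-04). Of the 31, 2 rose (Cdc5l and Zmat2) and 3 fell (Eftud2, Xab2 and Syf2) in fl/fl Gdf9-Cre (16.1%, beside 1.48% of all genes), where 9 had an unadjusted p under 0.05 and DESeq2 called 6. In fl/fl Zp3-Cre 3 fell (Snw1, Cwc22 and Slu7; 9.68%, beside 2.27% of all genes), where 10 had an unadjusted p under 0.05 and DESeq2 called 4. The medians were -0.13 and -0.10, beside 0.00 and 0.00 over all genes. An unadjusted p under 0.05 was reached by 11.7% and 13.1% of all genes, and DESeq2 called 728 and 892.

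**Figure D4:**
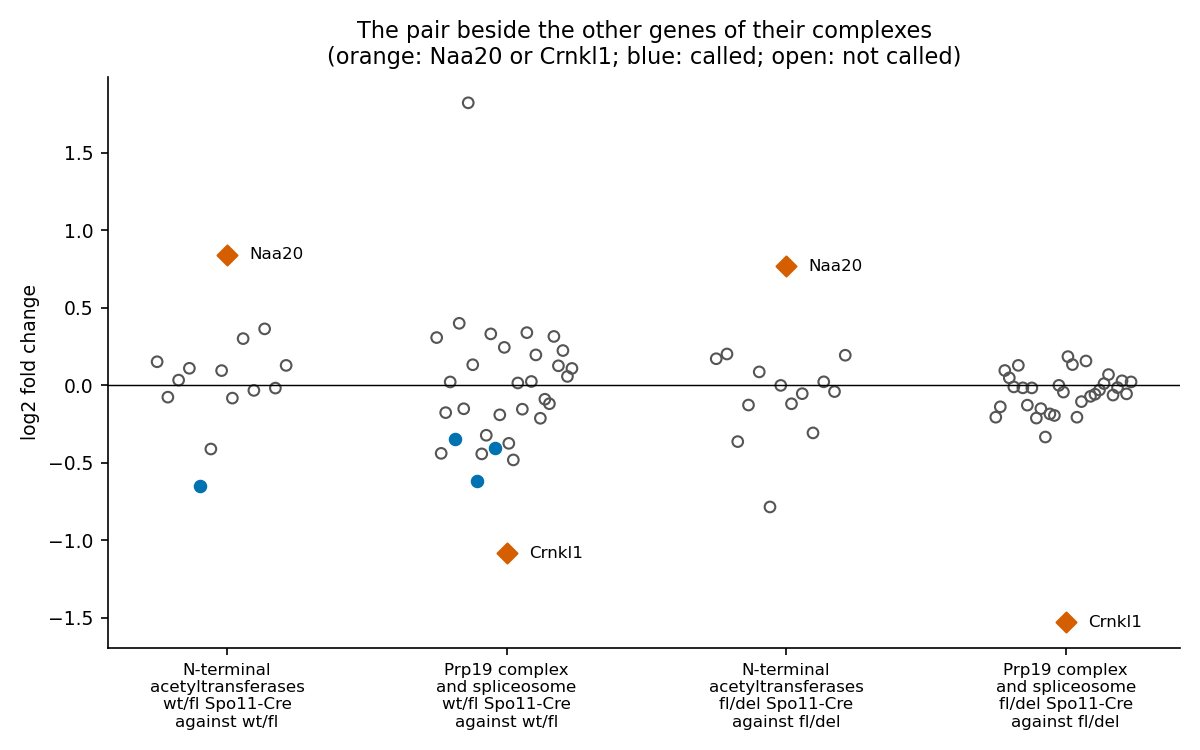
Log2 fold changes of the listed N-terminal acetyltransferase genes and Prp19 complex and spliceosome genes in wt/fl Spo11-Cre against wt/fl and in fl/del Spo11-Cre against fl/del, with Naa20 and Crnkl1 as orange diamonds, called genes in blue and others open. In fl/del Spo11-Cre against fl/del, 0 of the 13 and 0 of the 31 other genes are called. Naa20 at 0.77 and Crnkl1 at -1.53 lie outside the range of their own lists, but both were chosen for their difference, so this is no test. Naa60, an acetyltransferase gene that was not called, lies about as far from 0 as Naa20 on the other side, at -0.78 ± 0.31. The open point at 1.82 in wt/fl Spo11-Cre against wt/fl is Cdc5l.

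The genes whose levels followed the pair most closely lay elsewhere in the genome. Among 9479 genes with a mean of at least 5 CPM, the highest Pearson's r with Naa20 over the 21 libraries belonged to Ezh2 (0.88), Rae1 (0.86), Zcchc7 (0.84), Cul1 (0.83) and Timd4 (0.82), and the lowest to Dhx29 (-0.81), Ighg2b (-0.80), Camsap2 (-0.80), Atad2 (-0.78) and Tmem72 (-0.76). For Crnkl1, the highest belonged to Pias2 (0.85), Klhdc1 (0.80), Gse1 (0.78), Dnajc11 (0.78) and Adgra3 (0.78), and the lowest to Ubb (-0.84), Rbm38 (-0.82), Rae1 (-0.80), 2700062C07Rik (-0.79) and Zfp820 (-0.77). The r between Naa20 and Crnkl1 on this measure was -0.75. These values share libraries, groups and depth and carry no p, and since both genes fall at separate levels, Crnkl1 within wt/fl too, they mostly record which libraries lie at which level.

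Ezh2, a histone methyltransferase gene, was at 419 to 492 CPM with Spo11-Cre and 266 to 354 CPM without it. Cul1, a cullin ubiquitin ligase gene, is its neighbour on chromosome 6, with 3999 bases between them, and was at 1903 to 2199 and 952 to 1421 CPM. Rae1, an mRNA export factor gene, was at 320 to 432 and 170 to 216 CPM, and Rbm38, an RNA-binding protein gene, at 154 to 279 and 37.3 to 140 CPM. The ranges did not overlap for these 4 genes, as for 15 of the 9479 (0.158%). Of the other genes listed by r, they did not overlap for Zcchc7 (chromosome 4), Ubb (11), Gse1 (8) and Dnajc11 (4) either. Likeness to genes that differ with Spo11-Cre had selected all of these, so the separation describes the choice. Rae1 and Rbm38 lie 4758 bases apart on chromosome 2, and Rae1 begins 6540 bases past the end of Spo11, the gene for which the Cre transgene is named. Crnkl1 lies 27.0 Mb from Spo11 on that chromosome. In the m923 and m920 wt/fl libraries, in that order, Rae1 averaged 204 and 211 CPM and Rbm38 120 and 109 CPM, so neither split the way Crnkl1 did.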

How the data were processed

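Groups were taken from the labels' genotypes. Per the labels and the study's methods, fastp removed adapters and HISAT2 (2.2.1) mapped the reads onto GRCm38, after which the authors made counts per gene from uniquely mapped reads with featureCounts (2.0.3) on Ensembl annotation; strand handling is not given in the sources used here. The deposited count table over all exons was used as it stands, and its counts were 1.95 times (median) those of a second deposited table, made with only 1 Kif11 exon. The authors' deposited TPM values served for levels per length. Tables made with exon 1 of Kif11 were not used.

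CPM is the count per 1000000 of a library's total. Symbols and positions came from the GENCODE annotation of the same build. edgeR (4.0.16, R 4.3.3, TMM, quasi-likelihood test) was fitted to genes seen, at any count above 0, in 3 or more libraries, on 17 libraries for the Spo11-Cre background and on 21 for the fl/fl groups, with Benjamini-Hochberg adjustment over all genes tested. DESeq2 (1.42.0), which the study used for Kif11, was an alternative. Simulated counts with known changes were used to test the script. Total counts were 7205010 to 18454549, and the low counts of some neighbours limit their precision.

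The members and gene lists were chosen with earlier results of these data known. Named were the pair, Kif11, the genes beside the pair, every called gene of the neighbours and both lists, Naa25, Prpf19 and Cdc5l, and the 5 highest and 5 lowest genes by r with each member. The other opposite pairs, the genes whose ranges are given beside Naa20 and Crnkl1 (Ezh2, Cul1, Rae1 and Rbm38) and the promoter motif were chosen after their values or letters were seen. 1 listed symbol, Naa12, matched no gene in the table. Alternatives covered normalisation, tool, filter, libraries in the fit, the replicate block, the second count table, libraries summed by name prefix and each library left out; leaving out the wt/fl libraries of 1 name prefix was added after seeing the data. Figures were drawn with matplotlib (3.10.9).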

Additional observations from a re-analysis of the deposited data

Results flagged for a closer look

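Of 28 groups of 4 or 5 libraries checked, 2 held a library whose gap to the nearest other exceeded Dixon's 95% limit, and chance gives about 1 in 20. In fl/del Spo11-Cre, the CPM ratio of Crnkl1 to Naa20 was 0.993 in replicate 3, against 0.707 to 0.729 in the other 3 libraries. That library had the lowest Naa20 (177 CPM) and the highest Crnkl1 (175 CPM) of its group. In wt/fl, Prpf19 was at 4.76 CPM in replicate 1, against 2.12 to 2.50 CPM in the other 3. The wt/fl split of Crnkl1 does not exceed the limit, since its 4 libraries form pairs.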

How the results depend on the processing

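The level of Naa20 as percent of wt/fl moved by less than the SD of its group under all 77 alternatives, libraries left out included. For a library of the group itself this was fixed in advance, because leaving it out always shifts the mean by less than that SD. Without 1 of its own libraries, Naa20 was at 100% or 132% in fl/fl Gdf9-Cre and at 96.6% or 121% in fl/fl Zp3-Cre. Crnkl1 as percent of wt/fl rests on which wt/fl libraries enter. Without each replicate in turn it ran from 39.3% to 57.0% in wt/fl Spo11-Cre, from 114% to 166% in fl/del, from 40.4% to 58.5% in fl/del Spo11-Cre, from 119% to 174% with Gdf9-Cre, and from 137% to 199% with Zp3-Cre. In the same order of groups it was 96.9%, 282%, 99.6%, 295% and 338% with the m920 libraries left out and 30.3%, 88.3%, 31.1%, 92.3% and 106% with the m923 libraries left out, so fl/del and fl/fl Gdf9-Cre turned from above to below wt/fl. The log2 fold change of Crnkl1 against wt/fl with the m920 libraries left out was -0.031 for wt/fl Spo11-Cre and 1.51 for fl/del, then -0.021 in fl/del Spo11-Cre, 1.49 with Gdf9-Cre and 1.65 with Zp3-Cre. Naa20 log2 fold changes without each replicate ran from -0.060 to 0.34 in fl/fl Gdf9-Cre and from -0.19 to 0.22 in fl/fl Zp3-Cre, where 1 library then stood for the group and was assumed to vary like the others. The other log2 fold changes of the pair moved by less than the spread between libraries. For Crnkl1 against wt/fl that spread includes the wt/fl split, so it cannot show those values to be stable. Leaving out the m923 libraries turned Crnkl1 from 0.45 to -0.16 for fl/del and from 0.43 to -0.18 with Gdf9-Cre. The Zp3-Cre value went from 0.59 to -0.01. Values for wt/fl Spo11-Cre moved from -1.08 to -1.70, and those for fl/del Spo11-Cre from -1.07 to -1.68.

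Counts of called genes depended on the setting, and the cause was not tested. In the order wt/fl Spo11-Cre, then fl/del, then fl/del Spo11-Cre, each against wt/fl, fl/del Spo11-Cre against fl/del, fl/del and fl/del Spo11-Cre against wt/fl Spo11-Cre, then Gdf9-Cre and Zp3-Cre against wt/fl, DESeq2 called 931, 25, 166, 90, 93, 14, 728 and 892. With no filter, the first 6 counts were 742, 80, 185, 134, 116 and 39. filterByExpr gave 2, 29, 25 and 4 in fl/del and fl/del Spo11-Cre against wt/fl and against wt/fl Spo11-Cre. With all 21 libraries in the fit, wt/fl Spo11-Cre against wt/fl gave 252, and fl/del and fl/del Spo11-Cre against wt/fl Spo11-Cre 20 and 5. The second count table gave 83 in fl/del Spo11-Cre against wt/fl. Only the groups compared gave 204 in fl/fl Zp3-Cre, and summing by name prefix gave 179 in fl/fl Gdf9-Cre and 323 in fl/fl Zp3-Cre. With the m920 libraries left out, wt/fl Spo11-Cre, Gdf9-Cre and Zp3-Cre against wt/fl gave 69, 187 and 260, and with the m923 libraries left out 263, 147 and 291, with 8 in fl/del against wt/fl. Without each replicate, counts ran from 179 to 575, 1 to 18, 30 to 71, 37 to 60, 20 to 50, 3 to 12, 99 to 407 and 133 to 1227. The lowest first count, 179, was without wt/fl replicate 2, and 133 and 1227 were without fl/fl Zp3-Cre replicate 1 and replicate 2.

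Summed over the 8 comparisons, called neighbours numbered 1, and 5 by DESeq2, 2 with the second count table, 0 with the m920 or m923 libraries left out, and 0 to 2 without each replicate. Called acetyltransferase genes numbered 2, and 4 by DESeq2, 1 with the replicate block or with the m920 or m923 libraries left out, and 1 to 3 without each replicate. Called Prp19 and spliceosome genes numbered 11, and 6 when libraries were summed by prefix, 5 with the m920 libraries left out, and 7 to 14 without each replicate. Opposite adjacent pairs numbered 13, and Naa20 with Crnkl1, chosen for this pattern, can enter that sum once per comparison. They numbered 53 by DESeq2, 26 with no filter, 25 with the replicate block, 4 with the m920 libraries left out, and 9 to 44 without each replicate.

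Whether the replicate numbers pair the libraries was not tested. Of 24 pairs of same-numbered libraries, 5 correlated above 0.1 in their deviations (-0.12 to 0.13). Their median was 0.02, beside -0.0075 for other pairs. A same-numbered library of another group was the best match for 7 of 17 libraries, and the share expected by chance was not worked out. With the replicate block, Crnkl1 was at -0.98 in wt/fl Spo11-Cre against wt/fl and -1.50 in fl/del Spo11-Cre against fl/del, Naa20 at 0.83 and 0.77, and the counts of calls in fl/del and fl/del Spo11-Cre against wt/fl were 96 and 230, in fl/del Spo11-Cre against fl/del 143, and against wt/fl Spo11-Cre 99 and 29. Each call of a named gene kept its sign under every alternative, but 9 of the 14 (Ctnnbl1, Cwc22, Naa40, Prpf3, Slu7, Smim26, Syf2, Xab2 and Zmat2) lost significance under at least 1 alternative other than leaving out a replicate. The remaining fl/fl calls depended on single libraries. Without fl/fl Zp3-Cre replicate 1, Naa30 fell from 0.74 to 0.51 and Snw1 moved from -0.69 to -0.45. Eftud2 moved from -0.84 to -0.70 without fl/fl Gdf9-Cre replicate 2, and Cdc5l from 4.38 to 3.36 without replicate 1. In each, 1 library then stood for the group. DESeq2 gave no adjusted p for Cdc5l.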

Other observations

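The wt/fl libraries named m920 and m923, 2 of each, were compared across genes by value only, and the difference was not tested, since the split was seen in these values. Of 9479 genes with a mean of at least 5 CPM over all libraries, 42 (0.443%) were at least 2-fold apart between the pairs without overlap. Crnkl1 ranked 6 by the size of the log2 difference, at 1.67, and Naa20 ranked 5061. On chromosome 2, 4 of the 42 were found, namely Crnkl1, Gm14322 (14.5 and 2.67 CPM in m920 and m923), Pla2g4f (5.60 and 2.13 CPM) and AU015228 (9.21 and 3.92 CPM). Crnkl1, at 502 and 157 CPM, had the highest level of these 4.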
